A study of Mus musculus with 19 samples.

Results

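Downstream open reading frames (dORFs) are reading frames that begin after the stop codon of the coding sequence annotated on a transcript. They were taken from lists of translated ORFs made from ribosome footprints of mouse lung organoids. An ORF was kept when at least 1 row of any list called it a dORF and no row of any list called it annotated, upstream, start-overlapping or internal. The lists held 1244 ORFs with a dORF row, of which 1080 were kept, against 21663 different ORFs in all. Of the 164 left out, 132 were also called internal and 39 also annotated. The 1080 dORFs lay in 902 genes and on 1327 transcripts. Some carried a second call on another transcript, 128 of them under a type not named above and 35 as overlapping the end of the coding sequence.

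The organoids were of strain C57BL/6 and were either lung adenocarcinoma (LUAD) organoids or organoids of alveolar type 2 (AT2) cells, the epithelial cells that make surfactant. ORF lists came from 3 LUAD and 2 AT2 libraries, footprint tables from 4 LUAD and 3 AT2 libraries, and RNA tables from 4 LUAD and 3 AT2 libraries. The series describes the ORF lists as 3 independent tumour-derived organoids and 2 independent AT2 cultures, and the LUAD lists carry the title KP, which the labels do not spell out. Nothing says that the footprint and RNA libraries were separate cultures, so their p-values measure the spread between these libraries, which may be technical. All organoids had spent 48 hours on Matrigel-washed plates, and cycloheximide at 100 µM, which stops translation elongation, was added for the last 5 minutes. The labels state no genotype, age or number of animals for either kind of organoid.

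As background, a ribosome normally leaves the messenger RNA at the stop codon, and the 3′ untranslated region behind it carries few ribosomes. A dORF can be read if a ribosome starts again behind the stop, or if the transcript annotated with that stop is not the one that was read. Many genes also have transcripts in the class nonsense_mediated_decay (NMD), in which the annotated stop lies upstream of an exon junction. The exon junction complex left there recruits the Upf proteins, which mark the RNA for degradation. On such a transcript everything behind the early stop counts as downstream, including the exons that encode the end of the normal protein.

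The 5 ORF libraries differed in depth. The deposited RPKM values imply totals of 11821100, 2733700 and 3075600 P-sites in LUAD 1, 2 and 3, and of 2696800 and 1419500 in AT2 1 and 2. A P-site marks where a footprint places the peptidyl-tRNA site of its ribosome. AT2 1 stood apart from the other 4 lists in its dORFs, so differences between the groups are also given without it. In the gene tables, footprint libraries held 4803129 to 14249573 estimated counts in LUAD and 3030290 to 3834358 in AT2, and RNA libraries 27181932 to 33203742 in LUAD and 4122819 to 10233520 in AT2. The AT2 label was checked against its markers, and not all of them fitted it. Gene values here sum only the transcripts that the ORF lists name. The planned AT2 markers Sftpc, Sftpa1, Lamp3 and Napsa had no value, nor had the planned leukocyte markers Ptprc, Adgre1 and Cd68. Nkx2-1, the lung lineage transcription factor, was at 0 to 0.355 CPM (counts scaled to a common total) in LUAD RNA and 184 to 455 CPM in AT2 RNA, and the surfactant protein gene Sftpb was at 0 to 0.569 CPM in LUAD RNA and 69.4 to 219 CPM in AT2 RNA. Sftpd and Abca3 were also higher in AT2 RNA without overlap, but the phosphate transporter Slc34a2 was at 0 in all LUAD and AT2 RNA libraries. The transcription factor Etv5 overlapped in RNA, at 12.7 to 23.3 CPM in LUAD and 21.0 to 35.4 CPM in AT2, and in footprints, at 17.6 to 28.9 CPM in LUAD and 6.21 to 18.4 CPM in AT2. The alveolar type 1 marker Aqp5, a water channel, was at 3.37 to 8.93 CPM in LUAD RNA and 1450 to 2730 CPM in AT2 RNA. Ager, another type 1 marker, was at 0 in LUAD RNA and 0 to 34.5 CPM in AT2 RNA. The leukocyte markers Cd14 and Mrc1 were at 125 to 194 and 14.1 to 18.0 CPM in LUAD RNA and at 6.86 to 18.6 and 0 to 1.12 CPM in AT2 RNA. In such bulk samples, fewer cells of a type and less RNA per cell cannot be told apart.

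Most dORFs lay on NMD transcripts. NMD transcripts alone hosted 641 dORFs (59.4%) in 560 genes, protein_coding transcripts alone hosted 413 (38.2%) in 344 genes, and 26 lay on both types. The types differed in where their dORFs ended. Of the 641 NMD dORFs, 458 (71.5%, exact binomial 95% interval 67.8 to 74.9) ended at the very stop codon of a listed annotated ORF of the same gene. Among the 413 protein_coding dORFs this held for 39 (9.44%, interval 6.80 to 12.7). A run of 10 amino acids was shared with a listed annotated ORF of the same gene by 555 NMD dORFs (86.6%) and by 41 protein_coding dORFs (9.93%). Wholly within the sequence of a listed annotated ORF of the gene lay 394 of these 555 NMD dORFs and 25 of these 41 protein_coding dORFs. Those are downstream by the annotation of their host transcript and part of the protein by that of another transcript of the gene. Set against the listed annotated ORFs of all genes, 446 dORFs shared no run of 10 amino acids, 59 of them on NMD and 363 on protein_coding transcripts. These intervals cover counting error only, and dORFs of 1 gene are not independent: 38 stop codons were each shared by 2 dORFs and 2 stop codons by 3.

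NMD dORFs were long and began soon after the early stop. Their median length was 256 codons (range 21 to 3044), against 70 codons (range 21 to 1047) on protein_coding transcripts. More than 100 codons were found in 85.6% of NMD dORFs and in 25.4% of protein_coding dORFs. The gap between the stop codon and the dORF start had a median of 118 nucleotides on NMD transcripts and of 509 nucleotides on protein_coding transcripts. The length difference held in each list: the median was 276 ± 52.7 codons for NMD and 72.3 ± 6.94 codons for protein_coding dORFs (SD over 5 libraries), with NMD longer in 5 of 5. The exact paired permutation test gave a two-sided p of 0.0625, the smallest that 5 pairs allow. It adds no support, because a dORF has the same length in each list and the lists share dORFs. Of the 1080 dORFs, 259 stood in at least 2 lists. NMD dORFs that ended elsewhere than at an annotated stop still had a median of 219 codons, and protein_coding dORFs that ended at one had a median of 76.

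**Figure D1:**
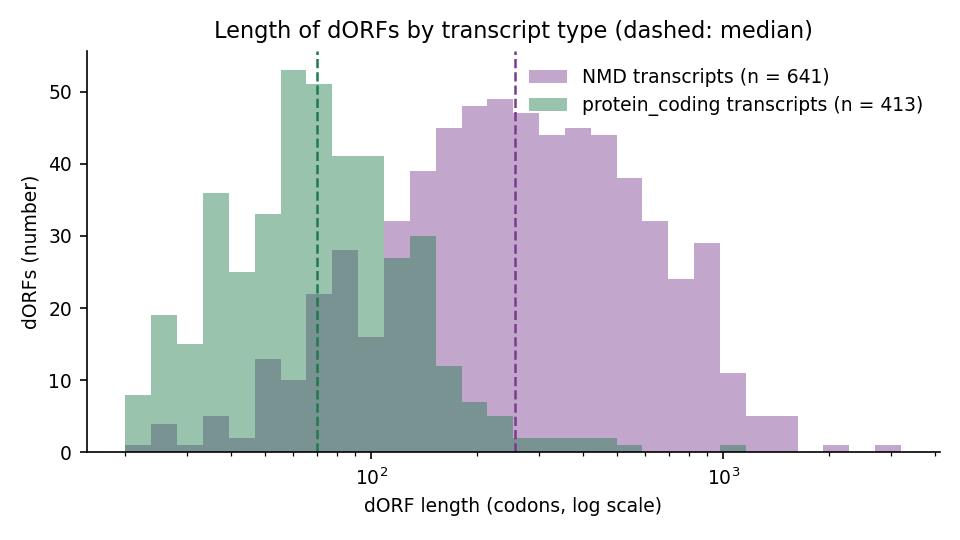
Number of dORFs (vertical axis) by length in codons (horizontal axis, log scale) for the 641 dORFs on NMD transcripts and the 413 on protein_coding transcripts, with dashed lines at the medians. The NMD distribution is centred at 256 codons and the protein_coding one at 70 codons, and they overlap between about 21 and 1047 codons.

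Where a dORF ended at the stop of an annotated ORF, it mostly was the end of the same protein. Of the 498 such dORFs, 412 lay wholly within the amino acid sequence of a listed annotated ORF of their gene, and all 498 shared a run of 10 amino acids with one. The annotated ORF stood in the same list for 463 such dORFs, in 679 pairs of dORF and library. In 674 of the 679 the dORF had no more in-frame P-sites than the annotated ORF with most P-sites at that stop. Where the dORF lies within that ORF this was fixed in advance, because the ORF's P-sites include those of the dORF. The dORF held a median of 54.4, 61.4 and 61.3% of the annotated ORF's codons in LUAD 1, 2 and 3, and 68.5 and 63.2% in AT2 1 and 2. Its share of the annotated ORF's in-frame P-sites had a median of 64.9, 64.6 and 62.8% in the LUAD lists and 78.6 and 71.4% in the AT2 lists. Across dORFs of 1 list, the share of codons and the share of P-sites correlated with Pearson's r of 0.64 to 0.90, a description across dORFs that share their P-sites with the ORFs they are set against.

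**Figure D2:**
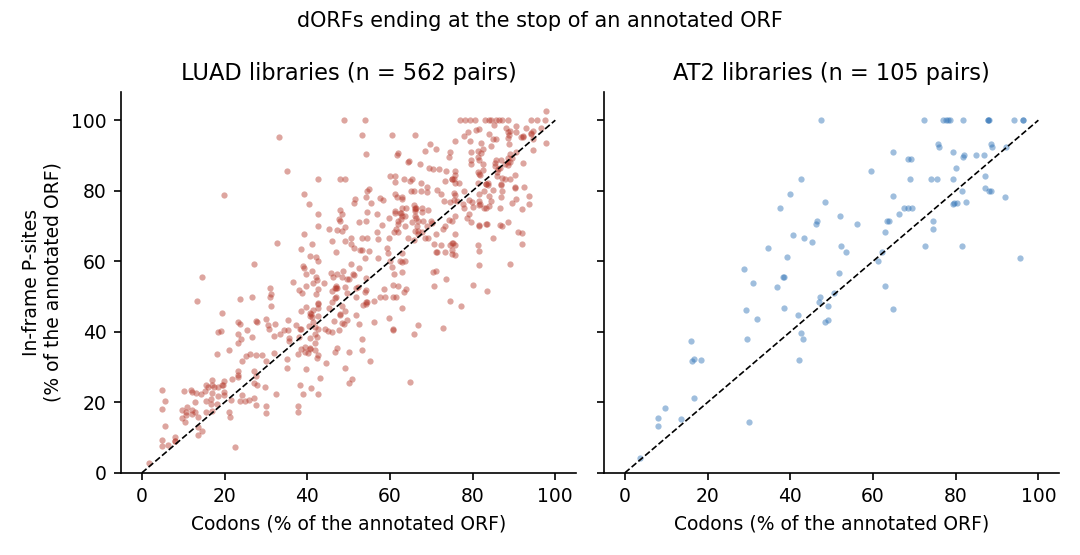
Each point is a dORF in 1 library that ends at the stop of a listed annotated ORF of its gene: its codons (horizontal axis) and its in-frame P-sites (vertical axis), both as a percentage of that annotated ORF, in LUAD (left, 562 pairs) and AT2 libraries (right, 105 pairs). Points lie on both sides of the dashed line of equal shares. In each library the median share of P-sites was above the median share of codons. The 12 pairs whose dORF was longer than the annotated ORF are not drawn.

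Ctnna1 encodes alpha-catenin, which ties cadherins to actin, and gave the most often counted NMD dORF. Its 803 codons begin inside the stop codon of the NMD transcript and are 88.6% of the 906-codon annotated ORF. It had 1154, 295 and 347 in-frame P-sites in LUAD 1, 2 and 3 and 125 in AT2 2, and it was not listed in AT2 1. The annotated ORF had 1292, 335 and 398 in the LUAD lists and 134 in AT2 2, so the dORF held 87.2 to 93.3% of them. Pfn1 encodes profilin, an actin monomer binder, and its dORF of 55 codons (mm10 chr11:70652124-70652856, minus strand, 62 nucleotides after the early stop) covers the end of the 140-codon protein. It had 1017, 281 and 265 P-sites in the LUAD lists and 113 in AT2 2, which was 58.1 to 79.0% of those of the annotated ORF for 39.3% of its codons. The Ctnna1 dORF thus took P-sites in proportion to its codons, and the Pfn1 dORF more than that.

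No NMD dORF was in all 5 lists and 11 were in 4. Of these 11, 8 ended at an annotated stop of their own gene, and those of Serf2, Sympk and Tcirg1 did not. Emp1, a tetraspan membrane protein of epithelia, had a 132-codon dORF (chr6:135379907-135381140, plus strand) with 943, 180 and 147 P-sites in the LUAD lists and 20 in AT2 2. Cse1l, the exportin that recycles importin-alpha, had a 395-codon dORF (chr2:166937347-166945793, plus strand) with 330, 38 and 45 P-sites in LUAD and 25 in AT2 2. Nt5c2, a cytosolic nucleotidase, had a 369-codon dORF (chr19:46888818-46897635, minus strand) with 264, 46 and 50 P-sites in LUAD and 15 in AT2 2. In each of these genes LUAD 1, the deepest list, held the most P-sites, and AT2 2 the fewest. Mfsd10, a membrane transporter, and Osbpl9, an oxysterol-binding-protein relative, had 145 and 134 P-sites over 4 lists. Of the 11, those of Sympk and Tcirg1 were listed in AT2 1. Tcirg1, a subunit of the vacuolar proton pump, is named after its values were seen: its 455-codon dORF had 42, 10 and 8 P-sites in LUAD and 13 in AT2 1. Sympk encodes symplekin, a scaffold of the machinery that forms messenger RNA 3′ ends. Its 753-codon dORF (chr7:19036712-19050134, plus strand) had 102 and 48 P-sites in LUAD 1 and LUAD 3, and 47 and 31 in AT2 1 and AT2 2. It did not end at a listed annotated stop but shared a run of 10 amino acids with a listed annotated ORF of Sympk.

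The NMD dORFs named as longest and shortest were also pieces of known proteins. Rev3l, the catalytic subunit of the translesion polymerase zeta, had the longest dORF, 3044 of 3122 codons of its annotated ORF, with 17 P-sites in LUAD 2 alone. Flna, the actin crosslinker filamin A, had a 1988-codon dORF (chrX:74223790-74239696, minus strand) with 973, 193 and 217 P-sites in the LUAD lists and no listing in AT2. These were 62.2 to 65.2% of the P-sites of the annotated Flna ORF. The shortest on an NMD transcript, of 21 codons, lay in Lgals1, which encodes the secreted lectin galectin-1, and had 71, 41 and 65 P-sites in the LUAD lists. Elk3, an ETS transcription factor, had a 24-codon dORF with 6 P-sites in LUAD 2 alone. Another NMD dORF of 24 codons, not named by the rule, shared no run of 10 amino acids with a listed annotated ORF of its gene.

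Of the 40 protein_coding dORFs found in at least 2 lists, 17 ended at an annotated stop of their gene and 23 did not, and the 3 found in 4 lists all did. Gnas encodes the stimulatory G protein alpha subunit from a complex imprinted locus with alternative first exons, and hosted 4 dORFs. Of the 3 on protein_coding transcripts, the longest (362 codons, chr2:174285435-174346388, plus strand) had 571, 234 and 223 P-sites in the LUAD lists and 90 in AT2 2. The Gnas dORF on an NMD transcript (321 codons, chr2:174334250-174346388) had 518, 220 and 206 in LUAD and 74 in AT2 2, and ended at the same stop. Mt1, the metal-binding metallothionein 1, had a 131-codon dORF with 157, 175 and 165 P-sites in the LUAD lists and 114 in AT2 2. Its annotated ORF with most P-sites has 61 codons and had 321, 249 and 224 in LUAD and 225 in AT2 2. The dORF was longer than that ORF and had fewer P-sites. A listed annotated ORF of Mt1 with the same stop has 132 codons, but the dORF did not lie wholly within the sequence of any listed annotated ORF. Psmb1 and Psma7, subunits of the 20S proteasome, had dORFs of 56 and 36 codons with 136 and 426 P-sites summed over lists. Of the 426 of Psma7, 413 came from LUAD 1 and 13 from LUAD 2. Tuba4a, an alpha-tubulin, had a 295-codon dORF (chr1:75215622-75216509, minus strand) with 494, 85 and 101 P-sites in the LUAD lists and no listing in AT2. Nxf1, the messenger RNA export receptor, and Ccn2, a secreted matricellular protein, had dORFs of 251 and 37 codons with 156 and 149 P-sites, in LUAD 1 and LUAD 2 alone. The 65-codon dORF of Hnrnpm, an hnRNP splicing regulator (chr17:33646496-33646693, minus strand), had 68 and 15 P-sites in LUAD 1 and LUAD 2 and 11 in AT2 2, 8.89 to 13.3% of those of the annotated ORF for 8.03% of its codons. Fam171a1, a membrane protein, had the second longest protein_coding dORF, of 534 codons, with 55 and 8 P-sites in LUAD 1 and LUAD 2. Over both types, 20 dORFs began inside the stop codon itself, 15 on NMD and 5 on protein_coding transcripts.

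Some host transcripts ran on into a neighbouring gene. Apart from the dORFs above, 17 ended at the stop of a listed annotated ORF of another gene: 12 on NMD transcripts, 4 on protein_coding transcripts and 1 on both. For 14 of the 17 the host was a predicted gene whose name begins with Gm. The dORF of Serf2 (129 codons, chr2:121457106-121458244, plus strand) ended at the stop of Hypk, a partner of the N-terminal acetyltransferase NatA. It had 123, 29 and 61 P-sites in LUAD and 30 in AT2 2. The longest protein_coding dORF, in Glod4, had 1047 codons (chr11:76210757-76213900, minus strand) and ended at the stop of Gemin4, a member of the SMN complex that assembles splicing particles. It had 82 and 26 P-sites in LUAD 1 and LUAD 2 and 12 in AT2 2. The dORF of Gm28048 (397 codons, chr11:22835993-22837186, minus strand) ended at the stop of B3gnt2, a glycosyltransferase that extends N-acetyllactosamine chains, with 48 P-sites in LUAD 1, 6 in AT2 1 and 7 in AT2 2.

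Most protein_coding dORFs ended elsewhere than at an annotated stop of their own gene. These 374, with the dORFs of Glod4 and other run-on hosts among them, had a median of 70 codons and 10 in-frame P-sites summed over lists, and 351 of them were in 1 list only. More than 100 codons were found in 88 of the 374 (23.5%). The shortest, of 21 codons, lay in Ccn2 and in Ly6e, a GPI-anchored surface protein, with 22 and 62 P-sites in LUAD 1 alone. For Ly6e the annotated ORF had 3881 P-sites in the same list. The following 5 dORFs without a run shared with an annotated ORF were chosen after their values were seen, as those found in 2 lists with most P-sites. That of Cep170b, a centrosome protein (58 codons, chr12:112745035-112745211, plus strand), had 59 P-sites in LUAD 1 and 5 in AT2 2. That of Tti2, a co-chaperone of PI3K-related kinases (114 codons), had 43 in LUAD 1 and 12 in LUAD 3. That of Ccn1, a matricellular relative of Ccn2 (89 codons, chr3:145647126-145647395, minus strand), had 30 in LUAD 1 and 16 in AT2 1. That of Cbx6, a chromobox protein of Polycomb complexes (65 codons, chr15:79827249-79827446, minus strand), had 31 in LUAD 1 and 10 in AT2 2. That of Wasf2, an activator of actin branching (165 codons, chr4:133196803-133197300, plus strand), had 22 in LUAD 1 and 13 in AT2 2. The amino acids encoded by the 363 protein_coding dORFs without any shared run were 12.2% leucine, 10.9% serine, 9.57% proline and 4.64% cysteine, against 9.90, 8.51, 6.13 and 1.93% in annotated ORFs. Lysine and glutamate made up 3.29 and 3.62% there, against 6.05 and 7.62% in annotated ORFs. In the 498 dORFs with an annotated stop, lysine and glutamate made up 5.90 and 7.19% and cysteine 2.12%.

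Few dORFs recurred across lists. Of the 1080, 821 stood in 1 list, 183 in 2, 62 in 3, 14 in 4 and 0 in all 5. Recurrence in at least 2 lists was 24.0% for all dORFs (interval 21.5 to 26.6), 33.9% on NMD and 9.69% on protein_coding transcripts. It was 39.8% where the dORF ended at an annotated stop and 10.5% where it did not. In the same lists 47.7% of annotated ORFs, 11.0% of upstream ORFs and 5.96% of internal ORFs recurred. LUAD lists alone held 745 dORFs, AT2 lists alone 215, and both kinds 120. Without LUAD 1, 16.5% of the remaining dORFs recurred. AT2 1 held 126 dORFs found in no other list, 75.4% of its own, against 47.2 to 61.8% in the other 4 lists. By gene, 759 hosts had 1 dORF, 115 had 2, 22 had 3, 5 had 4 and 1 had 5. The gene with 5 was Mms19, a cytosolic iron-sulfur assembly factor, and those with 4 were Gnas, the GTPase Hras, Itpripl2, the ligand Wnt7b and the 14-3-3 protein Ywhag.

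LUAD and AT2 lists were then compared over libraries. LUAD 1, 2 and 3 held 550, 326 and 208 dORFs, and AT2 1 and 2 held 167 and 178. The groups did not overlap, and all listed ORFs moved the same way, with 13380, 8122 and 5372 in LUAD and 2597 and 4426 in AT2. The dORF share of listed ORFs was 4.11, 4.01 and 3.87% in LUAD and 6.43 and 4.02% in AT2. The share was thus near 4% in 4 of the 5 lists and higher in AT2 1. The difference of means, LUAD minus AT2, was −1.23 percentage points (exact two-sided permutation p = 0.4), and it was −0.02 without AT2 1. It turned to 0.894 when at least 10 in-frame P-sites were required. For the number of dORFs the difference was 189 (exact permutation p = 0.2), 183 without AT2 1 and 94.5 without LUAD 1. Per 1000000 P-sites of the list there were 46.5, 119 and 67.6 dORFs in LUAD and 61.9 and 125 in AT2, which overlap, with a difference of −15.9 (exact permutation p = 0.6), or −47.6 without AT2 1. With 3 against 2 libraries no exact permutation p can fall below 0.2.

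**Figure D3:**
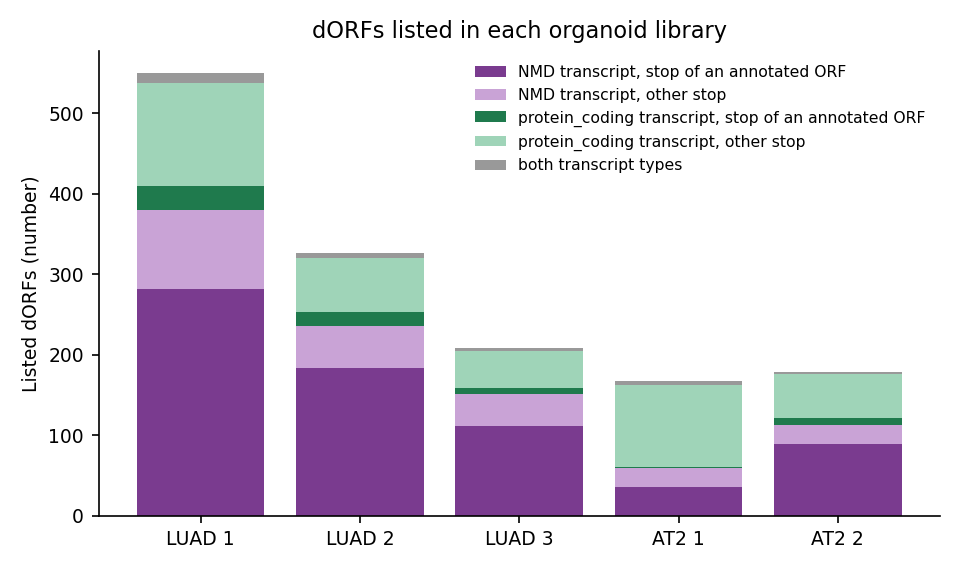
Number of dORFs (vertical axis) in each ORF library, LUAD left of AT2, stacked by host transcript type and by whether the dORF ends at the stop of a listed annotated ORF of its gene. NMD dORFs make up 69.1 to 72.6% of the bars of LUAD 1 to 3 and 63.5% of AT2 2, and 35.3% of AT2 1.

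NMD dORFs made up 69.1, 72.1 and 72.6% of the dORFs in the LUAD lists and 35.3 and 63.5% in the AT2 lists. The groups did not overlap, and the difference was 21.9 percentage points (exact permutation p = 0.2), of which 7.77 were left without AT2 1 and 35.9 without AT2 2. AT2 1 held 59 NMD dORFs and 103 protein_coding ones, 101 of which did not end at an annotated stop. The dORFs ending at an annotated stop held 78.4, 81.7 and 80.5% of all in-frame dORF P-sites in LUAD and 26.0 and 64.2% in AT2. AT2 1 was also the list with the fewest ORFs, 2597, and the part of that in the difference was not tested.

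In-frame P-sites were 51.0, 50.4 and 47.8% of the dORF P-sites of all frames in LUAD and 58.7 and 54.6% in AT2. For annotated ORFs the same share was 47.8, 46.8 and 44.1% in LUAD and 46.5 and 47.5% in AT2. The authors' lists were selected on the frame, so these levels are a description. The dORF share was lower in each LUAD list than in each AT2 list, with a difference of −6.94 percentage points (exact permutation p = 0.2), or −4.91 without AT2 1. Protein_coding dORFs away from annotated stops were at 58.9, 61.3 and 59.5% in LUAD and 61.7 and 59.8% in AT2. NMD dORFs with an annotated stop were at 50.04, 48.9 and 46.3% in LUAD and 58.0 and 52.4% in AT2. The median dORF had 44, 12 and 14 in-frame P-sites in LUAD and 8 and 9 in AT2, so the share rests on few P-sites per dORF in the shallower lists.

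Density was set against the main ORF of the same gene in the same list, as log2 of in-frame P-sites per codon in the dORF over the annotated ORF with most P-sites. Its median over dORFs was 0.10, 0.02 and 0.03 in LUAD and 0.13 and 0.14 in AT2. The difference was −0.09 (exact permutation p = 0.2), and it was also −0.09 without AT2 1. NMD dORFs with an annotated stop were 268 of 462, 163 of 256 and 95 of 133 of these dORFs in LUAD, and 25 of 39 and 75 of 112 in AT2. They mostly lie within an annotated ORF of the gene, whose P-sites then include theirs. A median near 0 is thus partly built in and does not compare separate stretches. Protein_coding dORFs away from annotated stops were below their main ORF in LUAD, at −0.45, −0.64 and −0.90 over 98, 41 and 12 dORFs. In AT2 they were at 0.09 and 0.19 over 7 and 17 dORFs. NMD dORFs with an annotated stop were at 0.14, 0.03 and 0.05 in LUAD and 0.28 and 0.11 in AT2. No listed dORF had fewer than 5 in-frame P-sites. The part of depth in the differences of frame and density was not tested.

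**Figure D4:**
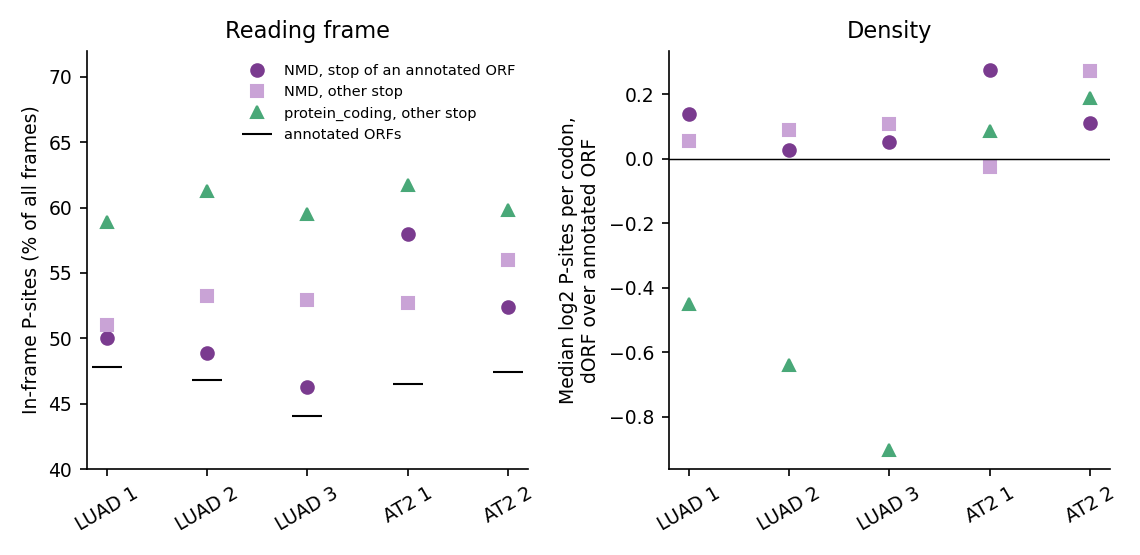
Left, in-frame P-sites as a percentage of P-sites of all frames; right, the median log2 density of dORFs over the annotated ORF of the same gene (0, equal density), both by ORF library with LUAD left of AT2. Protein_coding dORFs away from annotated stops have the highest in-frame share in each library, 58.9 to 61.7%, and lie below 0 in the 3 LUAD libraries.

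Splicing proteins gave the most hosts of the 4 gene lists examined. Of the 33 SR, hnRNP and related splicing proteins with any listed ORF, 15 hosted a dORF (45.5%), beside 902 of 7384 genes in all (12.2%). They hosted 16 dORFs, 12 on NMD and 4 on protein_coding transcripts, and 8 ended at an annotated stop. Hnrnpl, a regulator of alternative splicing, had a 245-codon dORF (chr7:28818724-28821906, plus strand) with 397 and 121 P-sites in LUAD 1 and LUAD 3 and 52 in AT2 2. Ptbp1, the polypyrimidine tract-binding protein, had a 151-codon dORF (chr10:79862514-79863277, plus strand) with 176 and 70 in LUAD 1 and LUAD 2. Srsf6, an SR protein, had a 210-codon dORF (chr2:162933660-162934757, plus strand) with 256 in LUAD 1 alone. The 109-codon dORF of Srsf3 (chr17:29039568-29039897, plus strand), another SR protein, had 81 in LUAD 1, in that list only. Tra2a, a splicing activator, hosted a 129-codon dORF with 82 P-sites in LUAD 1 and a 183-codon dORF with 22 and 9 in AT2 1 and AT2 2. SR and hnRNP genes are known from mouse and human for exons whose inclusion creates an NMD transcript.

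The other lists held fewer hosts. Of 13 NMD factors and exon junction proteins with a listed ORF, 1 hosted a dORF: Upf1, the helicase at the centre of NMD, with 85 codons and 7 P-sites in AT2 1. Of 15 termination, recycling and reinitiation factors, 2 did. Eif5, the GTPase activator of start codon selection, had dORFs of 287 and 108 codons with 521 and 225 P-sites, all in LUAD lists, and Gspt1, the release factor eRF3a, had 80 codons with 6 in AT2 2. Of 27 ribosomal protein genes, Rps18, Rps19 and Rps9 each hosted 1 dORF on an NMD transcript with an annotated stop, with 129, 22 and 69 P-sites in 1 LUAD list each.

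Host genes as a group differed between LUAD and AT2 in a share close to that of all genes. In footprints 862 hosts could be tested, and 181 passed edgeR's quasi-likelihood test at a Benjamini-Hochberg adjusted p under 0.05 over all genes, 81 higher and 100 lower in LUAD. That is 21.0% of the hosts, beside 21.3% of all genes tested (9.47% higher, 11.8% lower). In RNA 329 of 880 hosts passed, 161 higher and 168 lower, beside 37% of all genes (19% higher, 18% lower). With library sizes scaled on all transcripts, the median log2 change of all genes was 0.15 in place of −0.02 in footprints and 0.20 in place of 0.04 in RNA. The split of host calls then became 114 higher and 77 lower in footprints and 232 higher and 129 lower in RNA, beside 12.7% higher and 8.98% lower of all genes in footprints and 25.9% higher and 13.1% lower in RNA. Single libraries decided part of these counts: footprint calls numbered 106, 111 and 109 without LUAD 2, 3 and 4, and RNA calls 213 and 205 without AT2 1 and AT2 2.

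Hosts of NMD dORFs and hosts of protein_coding dORFs lay on either side of the median. NMD hosts had 104 genes higher (19.96%) and 74 lower (14.2%) of 521 in RNA (median log2 change 0.14). Protein_coding hosts had 54 higher (16.8%) and 83 lower (25.9%) of 321 in RNA (median −0.28). Over all genes 19% were higher and 18% lower in RNA, with a median of 0.04. The share of NMD hosts that were higher was thus near that of all genes. In footprints NMD hosts had 51 higher (10.1%) and 48 lower (9.47%) of 507 (median 0.09). Protein_coding hosts there had 26 higher (8.20%) and 46 lower (14.5%) of 317 (median −0.15), beside 9.47% higher and 11.8% lower of all genes. Scaled on all transcripts, protein_coding hosts had 76 higher (23.7%) and 66 lower (20.6%) in RNA, beside 25.9% higher and 13.1% lower of all genes. In footprints they then had 37 higher (11.7%) and 36 lower (11.4%), beside 12.7% higher and 8.98% lower of all genes. Their medians were −0.10 in RNA and 0.02 in footprints, beside 0.20 and 0.15 over all genes. NMD hosts then had 151 higher (29.0%) and 53 lower (10.2%) in RNA and 72 higher (14.2%) and 37 lower (7.30%) in footprints, near the shares of all genes under that scaling. Host genes enter through the lists, and 745 of the 1080 dORFs come from LUAD lists alone. The difference between the types of host was not tested.

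Among hosts that passed the test, the 6 with the largest footprint increase were Fgf13, Pear1, Tns4, Porcn, Cxcl5 and Tnfaip2. Tns4, a tensin adaptor at focal adhesions, had 363, 366, 306 and 285 CPM in the LUAD footprint libraries and 24.0, 8.68 and 33.3 in AT2 (log2 change 3.91 ± 0.43 SE, edgeR adjusted p = 9.51e-04). The groups were far apart. Tns4 hosts an 80-codon dORF 982 nucleotides after its stop, with 21 and 10 P-sites in LUAD 1 and LUAD 3. Cxcl5, a neutrophil-attracting chemokine, had 340, 301, 494 and 486 CPM in LUAD and 32.0, 25.2 and 39.3 in AT2 (3.65 ± 0.29, edgeR adjusted p = 3.58e-04). Tnfaip2, a gene induced by tumour necrosis factor, had 312, 284, 490 and 493 CPM in LUAD and 10.7, 29.8 and 63.5 in AT2 (3.46 ± 0.55). Pear1, an EGF-repeat receptor, averaged 24.7 ± 1.11 CPM in LUAD and 1.90 ± 2.29 in AT2 (SD, n = 4 and 3). Porcn, the acyltransferase that lipidates Wnt ligands, averaged 28.1 ± 13.5 CPM in LUAD and 2.63 ± 3.23 in AT2 and lost its call in 5 of 13 alternatives. Fgf13, an intracellular FGF-family protein, had 479 counts over the LUAD and 3 over the AT2 libraries, a ratio of 27.1 after scaling (counting interval 9.22 to 132), and lost its call in 7 of 13. Single AT2 footprint libraries moved some of these log2 changes: that of Pear1 was 4.01 over all libraries, 5.32 without AT2 1 and 3.32 without AT2 3, that of Porcn 3.71, 5.09 and 3.01, and that of Tnfaip2 4.24 without AT2 3.

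Among hosts that passed the test, the 6 with the largest footprint decrease were Snx22, Bmp1, Tbc1d8, Epha2, Ggcx and Timp2. Bmp1, the procollagen C-proteinase, had 103, 100, 37.0 and 29.6 CPM in LUAD and 1166, 584 and 536 in AT2 (−3.50 ± 0.54, edgeR adjusted p = 0.00374). Epha2, an ephrin receptor, had 484, 417, 702 and 753 CPM in LUAD and 3450, 4916 and 5045 in AT2 (−2.92 ± 0.28, edgeR adjusted p = 5.72e-04). Timp2, a metalloproteinase inhibitor, averaged 68.1 ± 12.1 CPM in LUAD and 402 ± 92.8 in AT2, and Ggcx, the vitamin K-dependent carboxylase, 6.42 ± 0.63 in LUAD and 40.6 ± 2.96 in AT2 (SD, n = 4 and 3). Tbc1d8, a Rab GTPase-activating protein, averaged 3.18 ± 1.76 CPM in LUAD and had 49.8, 14.1 and 11.3 CPM in AT2 (log2 change −2.97 ± 0.72, edgeR adjusted p = 0.0226). Its change was −2.03 without AT2 footprint library 1 (edgeR adjusted p = 0.0558), and the call was lost in 5 of 13 alternatives. Snx22, a sorting nexin, had 1 count over the LUAD libraries and 86 over the AT2 libraries. Its ratio, AT2 over LUAD, was 506 after scaling (counting interval 88.5 to 20233). AT2 footprint library 1 held most of these counts, with 61.4, 3.31 and 3.40 CPM in the 3 AT2 libraries, and without it the ratio was 122 (counting interval 19.2 to 5113; edgeR adjusted p = 0.0272).

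In RNA the same hosts led in part. Pear1 had 40.9, 36.7, 34.9 and 34.0 CPM in LUAD and 0 in each AT2 library, at least 205-fold higher in LUAD against a floor of 3 counts over the AT2 group. Prdm4, a zinc finger factor, and Fastk, by name a serine/threonine kinase, had 326 and 132 counts in LUAD and 0 in AT2. They were at least 21.3-fold and 8.63-fold higher in LUAD. Gene counts cover only transcripts that the ORF lists name. A 0 thus does not show that the whole gene was silent in AT2. Prdm4 rests on LUAD RNA libraries 2 and 3, with 0.578, 7.49, 6.35 and 0.734 CPM in LUAD 1 to 4, and without LUAD 2 it was at least 13.3-fold higher. Tns4, Tnfaip2 and Cxcl5 averaged 256 ± 26.5, 270 ± 106 and 933 ± 87.7 CPM in LUAD RNA and 0.193 ± 0.226, 1.74 ± 1.22 and 13.4 ± 11.9 in AT2 RNA (SD, n = 4 and 3). Lower in LUAD RNA were Snx22 (−4.25 ± 0.67), Bmp1 (−4.05 ± 0.65), the heparan sulfate enzyme Ndst1 (−4.02 ± 0.73), the surfactant lipid acyltransferase Lpcat1 (−3.32 ± 0.47), Tbc1d8 (−3.26 ± 0.71) and dystroglycan, Dag1 (−3.21 ± 0.55). Lpcat1 averaged 91.3 ± 27.0 CPM in LUAD RNA and 912 ± 517 in AT2 RNA, where AT2 3 had 316. AT2 3 was the lowest AT2 RNA library for each of these 6 hosts, and without it their log2 changes were −4.72 (Snx22), −4.37 (Bmp1), −4.51 (Ndst1), −3.73 (Lpcat1), −3.71 (Tbc1d8) and −3.68 (Dag1). Cxcl5 had 7.81, 5.39 and 27.2 CPM in AT2 RNA, and its log2 change of 6.24 was 7.15 without AT2 3. Fastk and Prdm4 lost their calls in 6 of 13 and 3 of 9 alternatives.

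Footprints per RNA changed in 11 of 887 hosts, 3 higher and 8 lower in LUAD, by edgeR's interaction of tissue and assay, beside 0.72% of all genes (0.282% higher, 0.438% lower). Azin1, the antizyme inhibitor of polyamine control, had similar footprints, 30.3 ± 4.52 CPM in LUAD and 26.2 ± 6.92 in AT2, but RNA of 50.8 ± 5.45 CPM in LUAD and 126 ± 12.1 in AT2 (interaction 1.63 ± 0.30 SE, edgeR adjusted p = 0.0291). Osbpl9 (1.21 ± 0.25) and the zinc finger gene Zfp809 (2.25 ± 0.46) were the other two higher. Arglu1, a splicing cofactor, had footprints of 94.1 ± 6.12 CPM in LUAD and 196 ± 42.7 in AT2, and RNA of 108 ± 7.45 CPM in LUAD and 76.2 ± 5.15 in AT2 (−1.47 ± 0.22, edgeR adjusted p = 0.0116). Dtnb, a dystrobrevin, changed by −2.74 ± 0.51. Tns4 (−6.01 ± 0.67) and Tnfaip2 (−3.97 ± 0.79) rose in both assays, with AT2 RNA near 0. The Tns4 value was −7.16 without AT2 RNA library 1, which held most of its 4 AT2 RNA counts, and that of Tnfaip2 was −3.20 without AT2 footprint library 3 (edgeR adjusted p = 0.094). Of 20 alternatives, the call was lost in 12 for Osbpl9, in 11 for Zfp809 and for Tnfaip2, in 9 for Azin1 and for Dtnb, in 2 for Arglu1 and in 0 for Tns4. The count was unstable: it was 1 without LUAD footprint library 2, 68 without AT2 footprint library 1, 30 without AT2 RNA library 3 and 2 to 6 without each of the remaining libraries, except AT2 footprint library 2 (10).

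In the list of splicing proteins 14 of 32 genes were higher and 0 lower in LUAD RNA (median log2 change 0.50), and in footprints 3 were higher and 2 lower of 32 (median 0.04). Over all genes tested, 19% were higher and 18% lower in RNA and 9.47% higher and 11.8% lower in footprints, so the footprint count is near that of all genes. Scaled on all transcripts, 21 splicing genes were higher and 0 lower in RNA, beside 1795 higher and 912 lower of all 6942 genes. The dORF hosts among them included Ptbp1, with an RNA change of 0.88 ± 0.15 (edgeR adjusted p = 0.00291), and Srsf6, with 0.72 ± 0.13 (edgeR adjusted p = 0.00353). In footprints the hosts Srsf1 and Tia1 rose by 0.67 ± 0.18 and 0.74 ± 0.20, and Snrnp70, the U1 particle protein, fell by 1.08 ± 0.18. Of 13 NMD and junction factors, 3 were higher and 0 lower in RNA, and 1 was higher and 0 lower in footprints. That one, named after its value was seen, was Magohb, a core junction protein, which hosts no dORF. Of 15 termination and reinitiation factors 3 were higher and 0 lower in RNA. For both lists the counts of higher genes are near the shares over all genes. Scaled on all transcripts they were above those shares in RNA, with 6 of the 13 (46.2%) and 9 of the 15 (60%) higher. In both lists 0 were then lower in RNA, beside 25.9% higher and 13.1% lower of all genes. The host Eif5 averaged 726 ± 117 CPM in LUAD footprints and 212 ± 51.6 in AT2 footprints (SD, n = 4 and 3; log2 change 1.77 ± 0.24, edgeR adjusted p = 0.00236).

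On NMD hosts the host transcript was a small part of its gene's RNA, counted over the transcripts that the ORF lists name. A gene's TPM (kallisto's length-scaled abundance) was summed over these listed transcripts, not over all its transcripts. The NMD host transcript's share was taken for genes of at least 1 TPM with another coding transcript in the lists. Its median over 462 to 479 genes was 1.36, 1.71, 1.71 and 2.19% in the LUAD RNA libraries, against 0, 0.227 and 0% in AT2 RNA. The groups did not overlap, with means of 1.74 ± 0.34% in LUAD and 0.0758 ± 0.131% in AT2 (exact two-sided permutation p = 0.0571, the smallest that 4 against 3 libraries allow). Depth moved with it, at 27181932 to 33203742 counts in LUAD and 4122819 to 10233520 in AT2, and its part in the difference was not tested. These host transcripts enter through listed dORFs, and 474 of the 641 NMD dORFs came from LUAD lists alone and 68 from AT2 lists alone. The p-value cannot separate a group difference from that choice of transcripts, whose part was not tested. The footprint shares below rest on the same choice. Genes whose NMD host transcript was at 0 were 29.6 to 35.6% in LUAD RNA and 46.0 to 55.8% in AT2 RNA. More than 50% of the gene's TPM lay on the NMD host transcript in 10.5 to 11.3% of genes in LUAD RNA and in 11.8 to 15.4% in AT2 RNA. Among them, the NMD host of Nt5c2 held 68.1 to 81.7% in LUAD and 73.1 to 78.0% in AT2, and that of Srsf6 67.2 to 75.6% in LUAD and 67.2 to 77.7% in AT2.

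In footprints the NMD host transcript had a median share of 2.34, 5.10, 3.15 and 3.00% in LUAD and 3.24, 0.0232 and 1.43e-05% in AT2. The groups overlapped through AT2 footprint library 1, with means of 3.40 ± 1.19% in LUAD and 1.09 ± 1.86% in AT2 (SD, n = 4 and 3; exact permutation p = 0.229), and the AT2 mean was 0.0116% without AT2 footprint library 1. The assays differed for single genes. The NMD host transcript of Ctnna1 was assigned 87.5 to 95.5% of the gene's TPM in LUAD footprints and 78.6 to 98.9% in AT2 footprints, but at most 0.542% in LUAD RNA and 0% in AT2 RNA. For Pfn1 it was 43.5 to 55.6% in LUAD footprints and 17.8 to 58.1% in AT2 footprints, but at most 0.238% in LUAD RNA and 1.66% in AT2 RNA. How reads that match several transcripts were divided between them by kallisto was not tested. In RNA, hosts of protein_coding dORFs held a median of 59.9 ± 6.33% of the TPM of the gene's listed transcripts in LUAD and 53.6 ± 9.03% in AT2 (exact permutation p = 0.343). In footprints they held 17.2 ± 6.47% in LUAD and 13.9 ± 13.5% in AT2 (exact permutation p = 0.686). Without AT2 footprint library 1 the AT2 mean was 6.12%.

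**Figure D5:**
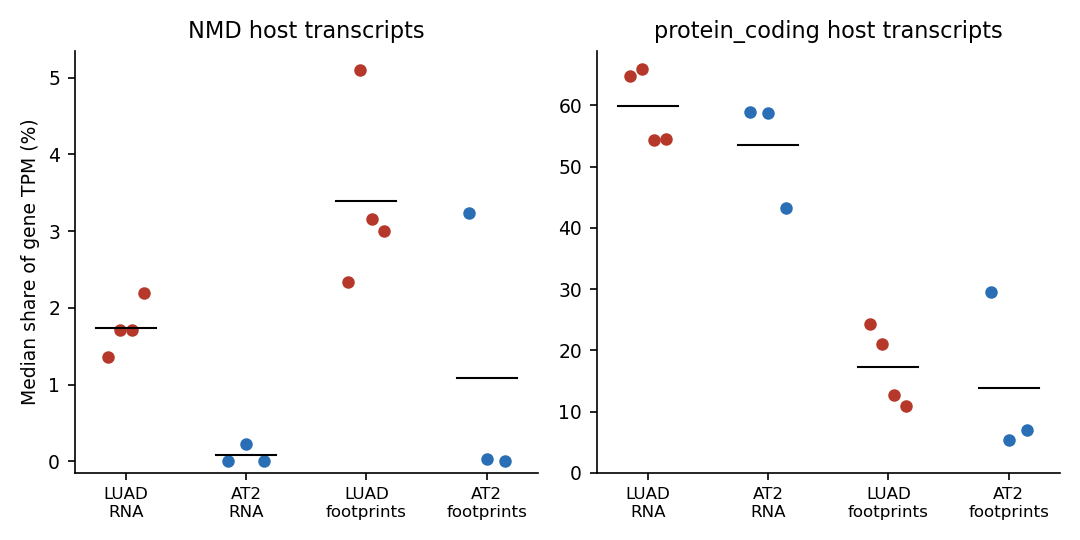
Median over genes of the dORF host transcript's share of its gene's TPM (vertical axis, percent), 1 point per library and a line at the group mean, for NMD (left) and protein_coding host transcripts (right). The gene's TPM is summed over the transcripts that the ORF lists name. NMD hosts are at 1.36 to 2.19% in LUAD RNA and at or below 0.227% in AT2 RNA, and the vertical scales of the panels differ.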

How the data were processed

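The ORF lists were used as the authors deposited them. Per the file headers they hold counts of P-sites by frame, an RPKM value per ORF and a combined p-value, and no listed p-value exceeds 0.05. Their build is mm10 per the submitters' processing notes, and the sources used here do not name the ORF caller. The footprint and RNA tables hold estimated counts and TPM, 1 row per transcript, as deposited, and the submitters' processing notes name kallisto. Its version and the transcript release are not given. RNA libraries carry the footprint protocol in the labels, so their preparation is not known.

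P-sites of a dORF were counted once per list, and shares carry exact binomial intervals at 95%. The total of a list was worked back from P-sites, length and RPKM. Group differences over lists were tested with exact permutation tests (scipy 1.17.1, Python 3.11.15). Genes were assigned to transcripts by the ORF lists, which name 22871 transcripts, 22509 of them (98.4%) in the count tables, covering 65.0 to 70.0% of a library's counts. This pairing favours genes seen in the ORF lists, and transcripts of a gene that no list names are left out of its counts and TPM. Estimated counts were summed to genes, rounded and fitted over all genes with edgeR 4.0.16 in R 4.3.3 (TMM, filterByExpr, robust quasi-likelihood test, Benjamini-Hochberg adjustment), after a check on simulated data. CPM values of host genes use TMM-scaled library sizes and those of markers plain totals. DESeq2 1.42.0, other scalings, no filter on low counts, stricter ORF limits, a replicate block and leaving out libraries were alternatives. Genes with near-identical copies or overlapping neighbours are uncertain.

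Members and lists were chosen with earlier results of these data known. The rule for names took, per transcript type, the 10 dORFs in most lists (ties by P-sites), the 2 longest and the 2 shortest, for host genes the 6 largest changes per direction past each test without overlap between groups (4 for footprints per RNA), and list members that host a dORF. Replicate numbers do not pair the libraries by their deviations from the group means, in RNA or in footprints. In RNA, pairs of the same number had r = 0.19, 0.15 and 0.24 for numbers 1 to 3. Pairs of unlike number reached similar values, with 0.18 for LUAD 1 and AT2 2, 0.16 for LUAD 2 and AT2 1, and 0.24 for LUAD 4 and AT2 3.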

Additional observations from a re-analysis of the deposited data

Results flagged for a closer look

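Of 28 groups of 4 LUAD libraries checked for a library far from the other 3, for named host genes and host transcript shares, 1 was flagged, and chance alone flags about 1 in 20 groups. In Snx22 footprints, LUAD 2 had 0.0855 CPM and the other 3 LUAD libraries 0. This is the single count of Snx22 in LUAD footprints.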

How the results depend on the processing

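Combined p limited to 0.01 kept directions, but 78.4% of NMD and 19.4% of protein_coding dORFs then ended at an annotated stop, protein_coding dORFs had a median of 62 codons, and 15.8% recurred. At least 1 shared base of genomic span gave 89.7% and 16.2% for the same comparison, and a shared run of 10 amino acids, added after seeing the data, 86.6% of NMD dORFs. With at least 10 in-frame P-sites the difference in dORF share, LUAD minus AT2, turned to 0.894 percentage points; the cause was not tested. Leaving out 1 library gave 16.5 to 24.1% recurrence, 106 to 258 host calls in footprints, 205 to 429 in RNA and 1 to 68 in footprints per RNA.

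With a replicate block, host calls were 116 in footprints, 351 in RNA and 20 in footprints per RNA, and differences over lists 1 and 2 kept their direction. Of the 181 footprint calls 103 were shared with the block. Footprint libraries carry numbers that do not pair them (r = 0.37, −0.30 and 0.30). Libraries of both kinds deviated together in sets, AT2 1 with LUAD 1 and 2 in footprints, and AT2 1 and 2 with LUAD 1 and 2 in RNA. With the set as a term, chosen after seeing the data, calls were 381, 501 and 76. For footprints per RNA, DESeq2 gave 49 calls and scaling on all transcripts 6. Named host genes kept their direction in 444 of 444 refits and lost their call in 80. Depth limits low hosts: 3 counts or fewer in a group allow only a bound or a counting interval. Host transcript shares were recomputed without AT2 footprint library 1, chosen after seeing the data, and marker levels had no alternative.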
